A study of Mus musculus with 6 samples.

Results

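A group of 10 receptor genes through which circulating and local hormones act on blood vessels was followed in the aortic root, where the aorta leaves the heart and the valve leaflets are attached. They were taken by name, and all 10 had a row among the 23420 gene symbols of the deposited table and passed the filter on low counts. From C57Bl6/J mice, 6 roots were sequenced, 3 labelled Sost+/+ (libraries WT 1 to WT 3) and 3 labelled Sost-/- (KO 1 to KO 3), where both copies of the sclerostin gene Sost are lacking per the labels. Both groups were fed a diet rich in cholesterol over their last 8 months and were 12 months old, having changed from standard chow at 4 months, so no group on chow throughout is at hand. The labels neither describe the Sost allele nor name the animals, and the p-values here measure only the spread between these roots.

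Vascular tone is set in part by receptors that couple to G proteins. Angiotensin II, endothelin, noradrenaline and vasopressin bind receptors that raise calcium in smooth muscle and make it contract. Prostacyclin, adrenomedullin and calcitonin gene-related peptide (CGRP) bind receptors that raise cyclic AMP and relax it. The receptor for the last pair of peptides is built from CALCRL, a membrane-spanning receptor, and a small RAMP partner: RAMP1 gives the CGRP receptor, RAMP2 an adrenomedullin receptor.

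Total counts ran from 37023586 to 48172863 per library. Sost itself was not lower in the libraries labelled Sost-/-, with 513 to 2284 counts against 274 to 621 (log2 fold change 1.56, SE 0.48, adjusted p = 0.124 by edgeR's quasi-likelihood test), so each direction below is for libraries by their label. Marker genes showed heart muscle in every library, with 10 cardiomyocyte markers summing to 45450 to 70740 CPM (reads scaled to a common library size), as well as smooth muscle, endothelium, fibroblasts and adipocytes. Of all 15096 genes tested, 2.55% passed at an adjusted p of 0.05, of which 329 were higher and 56 lower in the libraries labelled Sost-/-. Leaving out WT 1 took that total of 385 to 0 in edgeR (2262 at an unadjusted p under 0.05, and 624 called by DESeq2), leaving out KO 3 took it to 10, WT 3 to 118 and KO 2 to 218. In such bulk samples, fewer cells of a type and less RNA per cell cannot be told apart.

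Of the 10 receptor genes, 1 rose and 0 passed as lower in edgeR. Ramp1, the CGRP receptor partner, was the one that rose, close to doubling (1.96-fold). Adra1b, an alpha-1 adrenergic receptor, had the lowest fold change and just missed the threshold (edgeR adjusted p = 0.0514). The edgeR call takes 2.18% of all tested genes as higher and 0.371% as lower. Of the 10, 4 had an unadjusted p under 0.05, where 20.2% of all tested genes did (3 were higher, against 11.6% of all, and 1 lower, against 8.62%). The groups did not overlap for Ramp1, Ednrb and Adra1b, which is 3 of 10 genes against 25.4% of all tested genes (2 higher against 14.3%, 1 lower against 11.1%). The median log2 fold change of the 10 was 0.15, with 7 above 0 where 51.3% of all tested genes were, and the median of all tested genes was 0.0066. The share without overlap is close to that of all tested genes and is no result about these 10. DESeq2 called Ramp1 higher and Adra1b lower, where it called 7.83% of the genes it gave an adjusted p (5.08% higher, 2.75% lower).

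**Figure D1:**
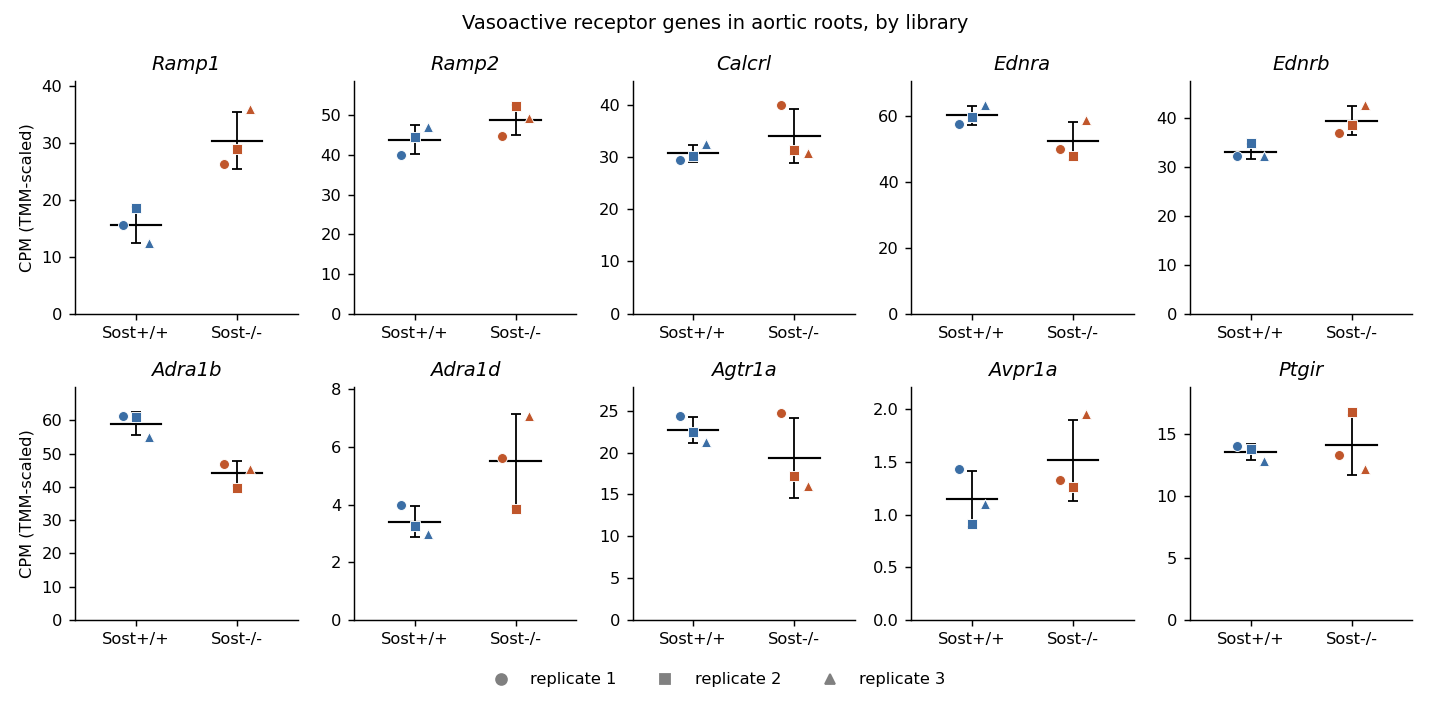
Level of each of the 10 receptor genes in CPM (y axis, from 0) in the 3 libraries labelled Sost+/+ and the 3 labelled Sost-/-; points are libraries, lines the group mean and bars 1 SD (n = 3). Ramp1 lies between 12.4 and 18.6 CPM on the left and between 26.3 and 35.9 on the right, while Adra1b lies at 55.1 to 61.2 against 39.7 to 47.0.

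Of the genes for the CGRP and adrenomedullin receptors, Ramp1 rose, and Ramp2 and Calcrl did not pass. Ramp1 held 15.6, 18.6 and 12.4 CPM in WT 1 to WT 3, and 26.3, 28.9 and 35.9 CPM in KO 1 to KO 3. Every library labelled Sost-/- was above every one labelled Sost+/+, and KO 3 was the highest of the 6. The means were 15.5 ± 3.12 and 30.4 ± 4.99 CPM (SD, n = 3), which on the log2 scale is a change of 0.97 (SE 0.16, 95% interval 0.60 to 1.34, edgeR adjusted p = 0.0246). The edgeR call was lost without WT 1 (0.96, adjusted p = 0.123), without WT 3 (0.82, adjusted p = 0.0505) and without KO 3 (0.83, adjusted p = 0.1). DESeq2 kept it in each of the 6 fits with a library left out, with adjusted p from 6.37e-07 to 0.00241. It called far more genes, however: 368 to 1313 of all genes in those fits, against 0 to 349 in edgeR.

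Ramp2, the adrenomedullin receptor partner, held 40.1, 44.6 and 47.1 CPM in WT 1 to WT 3 and 44.9, 52.5 and 49.3 in KO 1 to KO 3. Its groups overlapped through KO 1, and the log2 fold change of 0.16 (SE 0.10, 95% interval -0.06 to 0.37, adjusted p = 0.398) did not pass. Calcrl, the membrane-spanning receptor that both partners need, held 29.5, 30.2 and 32.6 CPM in WT 1 to WT 3. Its values in KO 1 to KO 3 were 40.0, 31.3 and 30.9 CPM. Only KO 1 stood above the libraries labelled Sost+/+, and the log2 fold change was 0.15 (SE 0.11, 95% interval -0.11 to 0.41, adjusted p = 0.50). Without KO 1 it was 0.016. The third partner gene, Ramp3, is no member of the group and was at 7.36 ± 0.46 and 5.96 ± 1.07 CPM without overlap (-0.31 on the log2 scale, SE 0.16, adjusted p = 0.326). The intervals of Ramp2 and Calcrl end below the lower end of the interval of Ramp1.

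Within a library, the balance between partners does not depend on how libraries are scaled, though reads are not molecules, since transcript lengths differ. There were 0.389, 0.418 and 0.263 Ramp1 reads per Ramp2 read in WT 1 to WT 3. In KO 1 to KO 3 these ratios were 0.586, 0.552 and 0.729, all above the first group. The difference in log2 ratio was 0.82, or 1.77-fold. Against Calcrl, the ratios of Ramp1 were 0.529, 0.617 and 0.380 in WT 1 to WT 3 and 0.658, 0.924 and 1.16 in KO 1 to KO 3. The nearest libraries, WT 2 and KO 1, were close, and the difference in log2 ratio was 0.84 (1.79-fold). Both ratios contain Ramp1 and so are not independent. Its own log2 fold change was 0.97, and those of Ramp2 and Calcrl were 0.16 and 0.15. An exact permutation test, two-sided, gave p = 0.1 for both, and no lower value can be reached with 3 libraries a side. The same was found for the Ednra to Ednrb and Adra1d to Adra1b ratios below (adjusted p = 0.1 over the 4).

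**Figure D2:**
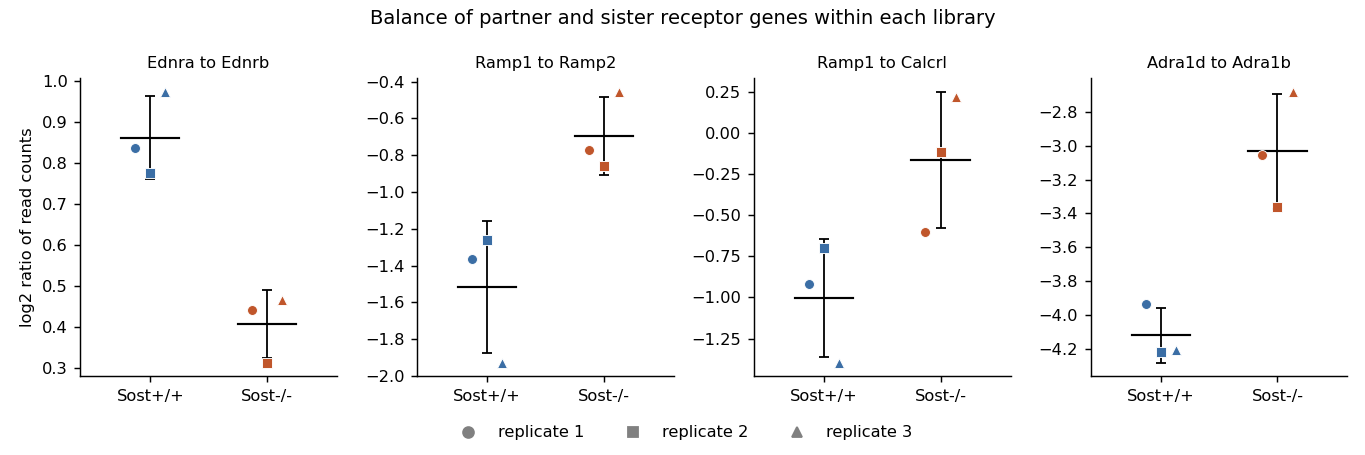
Log2 ratio of the read counts of 2 receptor genes within each library (y axis, not starting at 0) for 4 pairs, by label; points are libraries, lines the mean and bars 1 SD (n = 3). The groups do not overlap in any of the 4 panels: the Ednra to Ednrb ratio is lower, and the other 3 are higher, in the libraries labelled Sost-/-. The pairs were chosen with earlier results of these data known, and the 2 ratios of Ramp1 are not independent. How often other gene pairs lack overlap was not computed, while 25.4% of all tested single genes do.

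A RefSeq start of Ramp1, and the first listed of the 2 RefSeq starts of Adra1b, lie at the ends of the windows printed here. The windows are shown because DESeq2 called these 2 members with all 6 libraries. Each is the stretch of 250 bases before a RefSeq start (build GRCm38.p6, the assembly of mm10), in lower case because no searched motif was found in it. The Ramp1 window is chr1:91179572-91179821 on the plus strand, and the Adra1b window chr11:43901238-43901487 on the minus strand. In GENCODE M21, Ramp1 itself (ENSMUSG00000034353.14) spans chr1:91179822-91225196 and Adra1b (ENSMUSG00000050541.14) chr11:43774606-43901210.
Ramp1: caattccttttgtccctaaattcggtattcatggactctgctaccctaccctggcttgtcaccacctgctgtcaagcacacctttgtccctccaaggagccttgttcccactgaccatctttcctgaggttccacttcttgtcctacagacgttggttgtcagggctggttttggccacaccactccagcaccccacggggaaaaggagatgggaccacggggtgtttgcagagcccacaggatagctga
Adra1b: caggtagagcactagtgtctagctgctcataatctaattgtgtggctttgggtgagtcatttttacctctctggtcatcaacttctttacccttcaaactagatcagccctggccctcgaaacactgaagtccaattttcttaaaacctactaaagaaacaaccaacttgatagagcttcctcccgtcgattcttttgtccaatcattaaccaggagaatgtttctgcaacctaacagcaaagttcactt
GC content was 54.0% in the Ramp1 window and 41.6% in the Adra1b window, with a median of 52.4% over all 32851 windows of that length. Searched on both strands were the CArG box (bound by serum response factor at muscle genes), the E-box CACGTG, the GC box GGGCGG and the TATA box TATAAA, none of which contains another. They occur in 1.47%, 6.02%, 32.7% and 12.4% of all windows. RefSeq gave 8 windows for 7 of the 10 genes, with 2 for Adra1b, and the table holds no entry for Agtr1a, Adra1d and Ramp2. Of those 8, 0 held a CArG box, 0 the E-box, 3 the GC box (Calcrl, Ptgir and the other Adra1b start) and 1 the TATA box (Avpr1a).

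The endothelin receptor genes leaned in opposite directions, and neither passed. Ednra encodes the A type, which makes smooth muscle contract, and Ednrb the B type, which in endothelium releases nitric oxide and clears endothelin. Ednra held 57.5, 59.8 and 63.4 CPM in WT 1 to WT 3 and 50.2, 48.01 and 59.0 in KO 1 to KO 3. KO 3 lay within the range of the libraries labelled Sost+/+, and the log2 fold change was -0.20 (SE 0.10, 95% interval -0.42 to 0.02, adjusted p = 0.286). Ednrb held 32.2, 34.9 and 32.3 CPM in WT 1 to WT 3 and 36.9, 38.7 and 42.7 in KO 1 to KO 3. Its groups did not overlap, yet the log2 fold change of 0.25 (SE 0.09, 95% interval 0.05 to 0.45) had an adjusted p = 0.165. There were 1.79, 1.71 and 1.96 Ednra reads per Ednrb read in WT 1 to WT 3, and 1.36, 1.24 and 1.38 in KO 1 to KO 3. That ratio was lower in every library labelled Sost-/-, by a difference in log2 ratio of -0.46 (0.729-fold, exact two-sided permutation p = 0.1, the lowest possible). This pair, too, was chosen with earlier results of these data known.

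The alpha-1 adrenergic receptor genes also leaned apart. Adra1b, which serves noradrenaline in heart muscle as well as in vessels, held 61.2, 60.9 and 55.1 CPM in WT 1 to WT 3. It held 47.0, 39.7 and 45.4 CPM in KO 1 to KO 3, each below all of the first group. Means were 59.0 ± 3.43 and 44.0 ± 3.84 CPM (SD, n = 3), and the log2 fold change was -0.42 (SE 0.09, 95% interval -0.63 to -0.21). With DESeq2 the adjusted p was 0.00482, in edgeR with no filter on low counts 0.0391 and with a stricter filter 0.0493. Over all alternatives it ran from 0.00273 to 0.185, and the value stayed below 0 in each.

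Adra1d encodes the subtype best known for contraction of the aorta. It held 3.99, 3.26 and 2.96 CPM in WT 1 to WT 3 and 5.63, 3.85 and 7.07 in KO 1 to KO 3. KO 2 overlapped the libraries labelled Sost+/+, and the log2 fold change of 0.69 (SE 0.24, 95% interval 0.16 to 1.23, adjusted p = 0.154) did not pass. The ratio of Adra1d to Adra1b reads was 0.0654, 0.0537 and 0.0541 in WT 1 to WT 3, and 0.120, 0.0973 and 0.156 in KO 1 to KO 3. Each library labelled Sost-/- was above all those labelled Sost+/+ (2.12-fold, exact two-sided permutation p = 0.1, the lowest possible). The pair was chosen with earlier results of these data known, so this p is no independent support. The subtype gene Adra1a, no member of the group, was at 15.2 ± 1.52 and 14.4 ± 0.72 CPM (-0.07 on the log2 scale, SE 0.11, adjusted p = 0.743). With total counts as the only scaling its value was 0.051.

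Among the receptors for angiotensin, vasopressin and prostacyclin, no gene passed. Agtr1a, the main type 1 angiotensin II receptor gene of mouse vessels, held 24.3, 22.5 and 21.3 CPM in WT 1 to WT 3 and 24.8, 17.2 and 16.1 in KO 1 to KO 3. KO 1 was the highest of the 6 libraries while KO 2 and KO 3 were the lowest. The log2 fold change was -0.23 (SE 0.16, 95% interval -0.59 to 0.13, adjusted p = 0.445), and -0.45 without KO 1 (adjusted p = 0.0770 by edgeR, and -0.47 with 0.0177 by DESeq2).

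Avpr1a, the receptor by which vasopressin constricts vessels, had only 36 to 82 counts per library. It was at 1.44, 0.916 and 1.098 CPM in WT 1 to WT 3 and at 1.33, 1.26 and 1.96 in KO 1 to KO 3, with overlap. At that depth the 95% interval of its log2 fold change of 0.39 was wide, from -0.27 to 1.06 (adjusted p = 0.483). Ptgir, the prostacyclin receptor gene, held 14.04, 13.8 and 12.8 CPM in WT 1 to WT 3 and 13.2, 16.8 and 12.1 in KO 1 to KO 3. The groups overlapped on both sides, and its log2 fold change of 0.05 (SE 0.13, 95% interval -0.25 to 0.36, adjusted p = 0.860) was the one nearest 0. Without KO 2 it was -0.094.

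**Figure D3:**
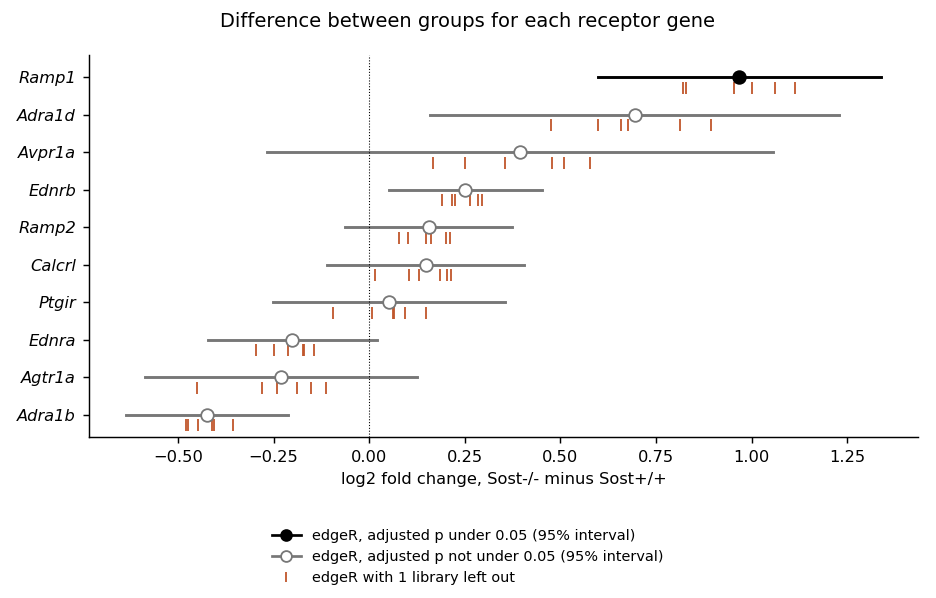
Log2 fold change of each receptor gene (x axis, libraries labelled Sost-/- minus Sost+/+) from edgeR; circles are estimates, lines 95% intervals and short ticks the estimates with 1 library left out. Ramp1 at 0.97 is the one filled circle, and the intervals of Ramp1, Adra1d, Ednrb and Adra1b do not reach 0.

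Levels of different genes were compared per length, as CPM per kilobase of the union of annotated exons (GENCODE M21). That union is at least as long as any single transcript, so values may be too low and the order of genes depends on it. In the libraries labelled Sost+/+, Adra1b was highest at 17.5 ± 1.02, followed by Ramp2 (13.3 ± 1.08), Ednra (11 ± 0.55), Agtr1a (8.15 ± 0.55), Ednrb (7.76 ± 0.36) and Calcrl (6.30 ± 0.33; SD, n = 3). Ramp1 was the seventh at 5.14 ± 1.03, before Ptgir (4.06 ± 0.19), Adra1d (1.79 ± 0.28) and Avpr1a (0.431 ± 0.099). The ranges over the 3 libraries overlapped for the neighbours Agtr1a and Ednrb, Calcrl and Ramp1, and Ramp1 and Ptgir, and were apart for the other neighbours.

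In the libraries labelled Sost-/-, Ramp2 (14.8 ± 1.15) and Adra1b (13.01 ± 1.14) led, and Ramp1 was the third at 10.1 ± 1.65 CPM per kilobase. Ednra (9.56 ± 1.06), Ednrb (9.24 ± 0.69), Calcrl (6.97 ± 1.05), Agtr1a (6.95 ± 1.70), Ptgir (4.22 ± 0.73), Adra1d (2.90 ± 0.85) and Avpr1a (0.568 ± 0.144) followed. Among the first 5, each gene's range overlapped with that of the next, as did Calcrl with Agtr1a and Ptgir with Adra1d. The gene model of Ramp2 overlaps that of Vps25 on the same strand, a gene with a row in the deposited table. Agtr1a, Ednra, Avpr1a and Adra1d each overlap 1 annotated model without such a row. These are overlaps of whole gene spans, and whether exons overlap was not examined. The reads of these 5 genes, and so their values per length, may be less certain. Ramp2 lies on chromosome 11 from 101246028 to 101259546, 0.703 Mb from Sost, and Adra1b lies 58.1 Mb away on that chromosome.

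Markers of smooth muscle were higher, and those of heart muscle lower in sum, in the libraries labelled Sost-/-. The 10 smooth muscle markers summed to 1272 to 2459 CPM in the libraries labelled Sost+/+ and 3548 to 5389 in those labelled Sost-/-, and 7 of the 10 rose (2.18% of all tested genes did). With a library left out, edgeR called 0 of them without WT 1 or KO 3, 1 without WT 3, 5 without KO 1, 6 without KO 2 and 7 without WT 2. By library, WT 2 was highest of the first group and KO 3 of all, both for this sum and for Ramp1, whereas KO 1 had more of the markers than KO 2 and less Ramp1. The 10 cardiomyocyte markers summed to 63320 to 70740 and 45450 to 55060 CPM, and 5 of the 10 were lower with no overlap (11.1% of all tested genes were). In edgeR 0 of them passed and 5 were lower at an unadjusted p under 0.05 (8.62% of all), and DESeq2 called 5 lower (2.75% of all). The log2 fold change was below 0 for 8 of the 10 and above 0 for 2. Those 2 were Myl4 at 0.65 and Myl7 at 0.46 (edgeR adjusted p = 0.533 and 0.670). Myh6, the highest of the 10, had means of 36114 and 26066 CPM and so weighs most in the sum. Summed CPM was also higher without overlap for pericyte (604 to 642 against 649 to 837), fibroblast (3603 to 3830 against 3991 to 4808) and lymphatic endothelial markers (187 to 205 against 220 to 235, with Ccl21a at 0 throughout). Blood endothelial markers overlapped (1112 to 1264 against 931 to 1273), as did macrophage (491 to 599 against 490 to 639), Schwann cell (43.4 to 57.6 against 56.6 to 83.5) and adipocyte markers (432 to 808 against 580 to 1251). Mesothelial markers summed to 104 CPM in KO 3 and 13.5 to 35.6 in the other 5 libraries. In edgeR, 1 of 6 pericyte and 1 of 5 tested lymphatic markers rose. Log2 fold changes were above 0 for 5 of 6 pericyte, 7 of 8 fibroblast and 5 of 5 tested lymphatic markers (51.3% of all tested genes). The pericyte marker Rgs5 (-0.20) and the fibroblast marker Pi16 (-0.07) were below 0. The fibroblast, blood endothelial, macrophage, Schwann cell, adipocyte and mesothelial lists (8, 10, 6, 6, 6 and 5 markers) had 0 that passed in edgeR. At an unadjusted p under 0.05 they had 4, 2, 2, 4, 5 and 0. The 2 of blood endothelium were lower (8.62% of all tested genes were) and those of the other lists higher (11.6% of all). DESeq2 called 3, 0, 1, 2, 0 and 0, each of them higher (5.08% of all). The part of these markers in the results for Ramp1, Ednrb, Adra1d and Adra1b was not tested.

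**Figure D4:**
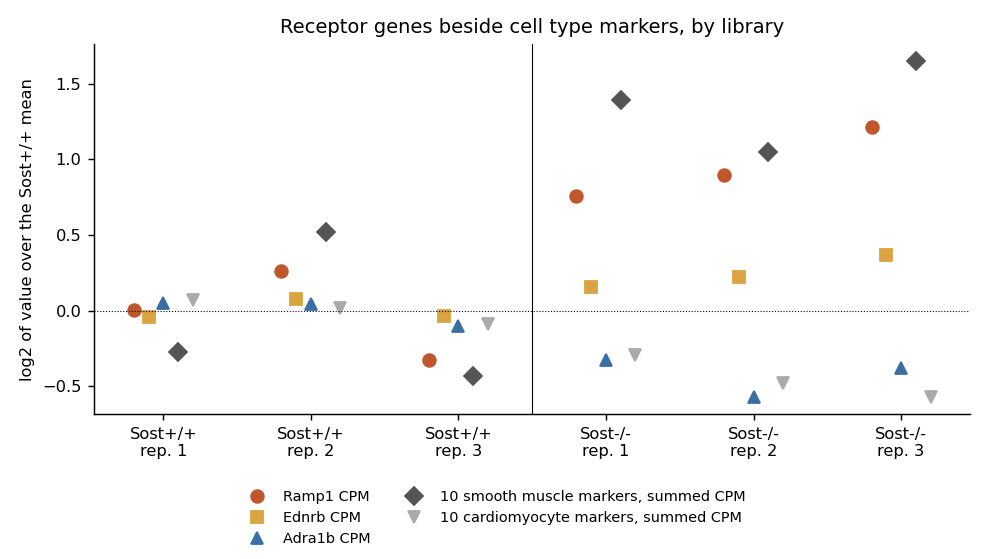
Log2 of each value over its mean in the libraries labelled Sost+/+ (y axis), for Ramp1, Ednrb and Adra1b and for the summed CPM of 10 smooth muscle and 10 cardiomyocyte markers, in each of the 6 libraries (x axis). Ramp1, Ednrb and the smooth muscle sum are above 0, and Adra1b and the cardiomyocyte sum below 0, in KO 1 to KO 3. The genes drawn are the members whose groups did not overlap, so their side of 0 there follows from that choice. Members whose groups overlapped are not drawn.

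The genes whose levels followed Ramp1 most closely over the 6 libraries were Slc24a3, which encodes a sodium, potassium and calcium exchanger (Pearson r = 0.9988 of log2 CPM), and Csrp2, which encodes a LIM protein of smooth muscle (0.9987). These are the 2 highest of all tested genes with a mean of at least 1 CPM. Slc24a3 went from 5.75 ± 1.78 to 14.8 ± 3.04 CPM (log2 fold change 1.36, adjusted p = 0.0238) and Csrp2 from 88.5 ± 27.3 to 246 ± 58.5 (1.47, adjusted p = 0.0205; SD, n = 3, edgeR). Both calls were lost in edgeR without WT 1 (adjusted p = 0.125 and 0.118) and without KO 3 (0.0991 and 0.075). All 6 libraries enter r, so the difference between groups is part of it.

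Among ligands and the enzymes that make or break them, 2 of 17 tested genes rose and 0 fell in edgeR. At an unadjusted p under 0.05, 6 were higher and 1 lower (11.6% and 8.62% of all tested genes). DESeq2 called 3 higher and 0 lower. Of all tested genes, edgeR called 2.18% higher and 0.371% lower, and DESeq2 5.08% and 2.75%. The list had a median log2 fold change of 0.21 beside 0.0066 over all tested genes. Ptgis, prostacyclin synthase, rose from 89.6, 121 and 112 CPM in WT 1 to WT 3 to 172, 177 and 245 in KO 1 to KO 3 (by 0.88 on the log2 scale, SE 0.16, adjusted p = 0.0288), while for its product's receptor, Ptgir, the change was the 0.05 above. Mme, neprilysin, which degrades vasoactive peptides, rose from 7.59 ± 0.73 to 12.4 ± 0.86 CPM (0.71, SE 0.12, adjusted p = 0.0265).

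Partner genes outside the naming rule were picked after their values were seen. The CGRP genes Calca and Calcb had at most 9 and 11 counts in a library and were not tested. Adm, adrenomedullin, was at 9.60 ± 1.54 and 13.04 ± 1.01 CPM without overlap (0.44 on the log2 scale, SE 0.14, adjusted p = 0.130). The endothelin genes Edn1 and Edn3 were at log2 fold changes of -0.22 and -0.32 (adjusted p = 0.461 and 0.471). Agt, angiotensinogen, and Ace, the converting enzyme, were at 0.15 and 0.22 (adjusted p = 0.861 and 0.307), and Agt turned to -0.14 without WT 1 and -0.32 without KO 3. Ptgs1, a cyclooxygenase upstream of prostacyclin, was at 0.47 (SE 0.11, adjusted p = 0.0660). It was called higher by DESeq2 (adjusted p = 0.0162), with no filter in edgeR (0.0483) and with total counts as the only scaling (0.0314). The other cyclooxygenase gene of the list, Ptgs2, was at 0.57 with overlap (SE 0.23, edgeR adjusted p = 0.215).

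**Figure D5:**
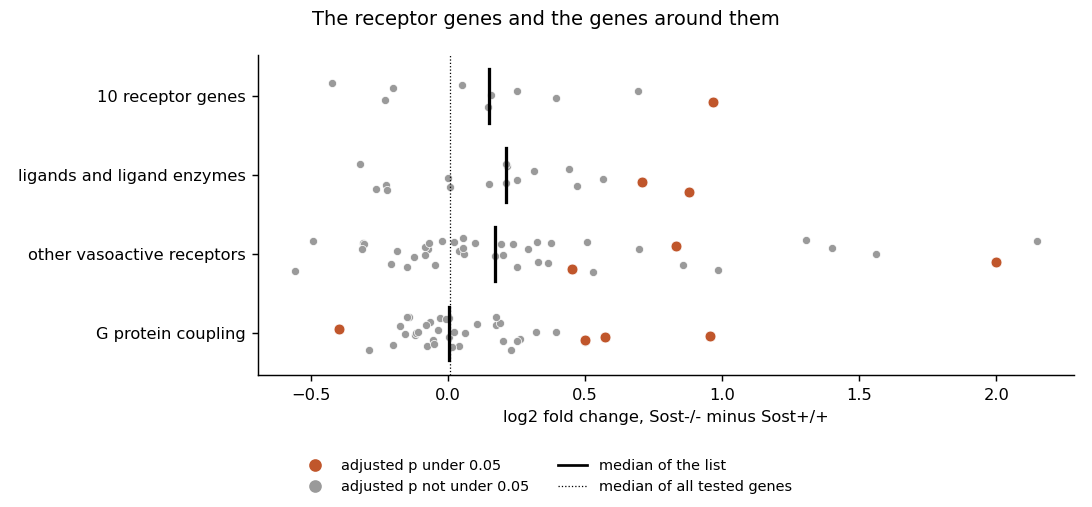
Log2 fold change (x axis) of each tested gene in the 10 receptor genes, the ligand, other receptor and G protein lists; orange points had an edgeR adjusted p under 0.05, bars are list medians and the dotted line is the median of all tested genes. Points are spread vertically at random for legibility, and 1 orange point lies below 0, Grk5 at -0.40.

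Of 43 other vasoactive receptor genes tested, 3 rose and 0 fell in edgeR (2.18% and 0.371% of all tested genes). At an unadjusted p under 0.05, 10 were higher and 3 lower (11.6% and 8.62% of all). DESeq2 called 7 higher and 2 lower (5.08% and 2.75% of all). The 43 had a median log2 fold change of 0.17. Npy1r, the Y1 receptor by which neuropeptide Y of sympathetic nerves constricts vessels, had the largest change of the 3 that rose. It held 4.31, 7.02 and 3.43 CPM in WT 1 to WT 3 and 19.5, 11.6 and 27.95 in KO 1 to KO 3 (2.0 on the log2 scale, SE 0.34, adjusted p = 0.0240). Tbxa2r, the receptor of the constrictor thromboxane, rose from 6.93 ± 1.42 to 12.3 ± 1.11 CPM (0.83, SE 0.17, adjusted p = 0.0388). Npr1, the receptor of natriuretic peptides that makes cyclic GMP, rose from 64.3 ± 2.88 to 87.9 ± 9.02 CPM (0.45, SE 0.10, adjusted p = 0.0458).

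Of 38 genes of G protein coupling, 3 rose and 1 fell in edgeR (2.18% and 0.371% of all tested genes), and DESeq2 called 5 higher and 1 lower (5.08% and 2.75% of all). Their median was 0.0034. Gnai1, an inhibitory G protein subunit, rose from 11.7 ± 1.45 to 22.7 ± 2.95 CPM (by 0.95 on the log2 scale, SE 0.13, adjusted p = 0.0151). Adcy3, an adenylyl cyclase, and Itpr3, an inositol trisphosphate receptor of the calcium store, rose by 0.57 (SE 0.11, adjusted p = 0.0325) and 0.50 (SE 0.10, adjusted p = 0.0443). Grk5, a kinase that desensitizes receptors, fell from 116 ± 1.78 to 88.1 ± 6.71 CPM (-0.40 on the log2 scale, SE 0.09, adjusted p = 0.0496). In edgeR, leaving out WT 1 or KO 3 ended each of these 9 calls outside the 10 receptor genes, with adjusted p of 0.085 to 0.166 without WT 1 and 0.0689 to 0.243 without KO 3. Mme, Tbxa2r, Adcy3, Itpr3 and Grk5 lost theirs with any 1 library left out, Npr1 with any but KO 1, and Ptgis and Npy1r also without WT 3. The Grk5 call also ended with upper quartile scaling, total counts and limma-voom, and that of Itpr3 with limma on the deposited normalized values. In sum, smooth muscle markers were higher and cardiomyocyte markers lower in the same libraries, and their part here was not tested either.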

How the data were processed

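RNA sequencing counts of 6 aortic roots were used, grouped by the genotype label, 3 per group and numbered in accession order. The authors deposited whole-number read counts for 23420 gene symbols, and a normalized signal that equals these counts divided by 1 factor per library, DESeq2's size factor. Per the submitters' processing notes, DRAGEN, HTSeq, DESeq2 and mm10 were used, while versions, annotation and strand setting are not stated by them. Where genes overlap, on either strand, a read's gene is therefore uncertain.

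A filter on low counts (filterByExpr of edgeR, minimum count 10 and total 15) left 15096 genes. Libraries were scaled by TMM, and the quasi-likelihood test of edgeR 4.0.16 (R 4.3.3) was used, with Benjamini-Hochberg adjustment over all of them and a threshold of 0.05. SE is the absolute log2 fold change over the square root of F, and 95% intervals use the fit's total degrees of freedom. Ratios added 0.5 to each count and were compared by exact two-sided permutation. Alternatives were DESeq2 1.42.0, limma 3.58.1, other scalings and filters, and each library left out. On counts simulated for this comparison over 14999 genes, edgeR called 25.8% of genes made to differ by 0.5 in log2, 79.1% at 1, 95.4% at 2, and 9 of 14801 left alone. Each gene was drawn independently with the dispersion of the same fit, so variation between roots that genes share is absent. The shares hold only under that model and do not measure false calls in the real libraries.

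The members, lists and ratios were chosen with earlier results of these data known. Named are the members, list genes that passed (at most 8 per list), and the 2 genes most like a called member. The rule also names the 2 highest genes of each marker list, which the report gives as sums. Of the list genes, 2 were matched by an older symbol in RefSeq.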

Additional observations from a re-analysis of the deposited data

How the results depend on the processing

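Of 200 values recomputed for the 10 receptor genes, 185 kept their direction and their side of the threshold. The 3 that lost a call were those of Ramp1 without WT 1, WT 3 or KO 3, and 10 gained one, 8 for Adra1b, 1 for Agtr1a and 1 for Adra1d. Ptgir ran from -0.094 to 0.15 with a library left out, below 0 without KO 2 (also by DESeq2, -0.10). The count of receptor genes called higher was 0 to 1 with a library left out in edgeR and 1 to 2 in DESeq2, and of those called lower 0 and 0 to 2. Of all genes, those edgeR fits called 0 to 349 in either direction, and those of DESeq2 368 to 1313. With no filter, with a stricter filter (at least 1 CPM in 3 libraries) and by DESeq2, 1 was called lower. Of all genes, 92, 64 and 408 were called lower there.

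Counts over all genes, higher and lower, were 753 and 408 by DESeq2, and 728 and 27 with total counts as the only scaling. That scaling moved the median of all genes to 0.13. Of the 10 receptor genes, 5 then had an unadjusted p under 0.05 as higher and 1 as lower. Of all 15096 tested genes, 3584 then had one in either direction, against 3056 with TMM scaling. Lower calls were 92 without a filter. Leaving out a library gave 0 to 313 higher and 0 to 37 lower. Of the other vasoactive receptors, 7 were called higher and 2 lower by DESeq2, 5 higher with total counts and 5 without a filter, and 0 to 2 with a library left out. Of the coupling genes, 5 were higher by DESeq2 and 5 with total counts. The 1 lower became 0 with upper quartile scaling, total counts and limma-voom, and 0 to 1 were higher and 0 lower with a library left out. Ligand genes called higher were then 0 to 1. The cause of these shifts was not tested. The 4 ratios kept their direction throughout, at -0.50 to -0.40 for Ednra to Ednrb, 0.61 to 0.95 for Ramp1 to Ramp2, 0.64 to 1.06 for Ramp1 to Calcrl and 0.91 to 1.25 for Adra1d to Adra1b.

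Other values that changed sign were of partner genes and marker genes that did not pass. With total counts C1qa was at 0.024 and Adra1a at 0.051, and Msln was at -0.021 with limma-voom and -0.055 with limma on the deposited normalized values. With a library left out, C1qa ran from -0.27 to 0.027, Fabp4 from -0.083 to 0.32, Upk3b from -0.81 to 1.63, Msln from -1.11 to 1.06 and Agt from -0.32 to 0.54. No paired analysis was possible because the labels give the groups no shared replicate numbers. DESeq2 with a library left out was added after seeing the data. Depth limits Avpr1a most.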
